A study of Sus scrofa with 22 samples.

Results

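Genes that move zinc, iron and copper were followed in the mucosa of the jejunum, the stretch of small intestine after the duodenum, of 22 Ossabaw pigs profiled by RNA sequencing. The set was made of the genes named SLC30A or SLC39A with a number, the zinc transporter families, and of 18 named genes of iron and copper transport, storage and sensing. It came to 38 of the 24358 genes in the files. The names SLC11A2, FTH1 and ATP7B were not among the gene names in the files, and ATP7B, identified through a separate table of gene names, is described beside the set. In 34 of the 38 members the counts passed the filter on low counts.

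The pigs, each giving 1 library, ate a heart healthy pattern (HHD, 7 pigs), the heart healthy pattern with atorvastatin (HHD_S, 8 pigs) or a Western pattern, labelled atherogenic, with atorvastatin (WD_S, 7 pigs) for 6 months. Both patterns were isocaloric with 38% of energy from fat, 47% from carbohydrate and 15% from protein. They differed in the kinds of fat and carbohydrate and in fibre, cholesterol, fruit and vegetables, and the pigs of HHD and HHD_S also took 1000 mg fish oil capsules. Atorvastatin, which blocks cholesterol synthesis, was dosed at 20 mg daily over the first 3 months and at 40 mg daily over the next 3. Boars and gilts were both used, with no sex given per pig in the labels, and Western-fed pigs without the drug were not analysed here. WD_S against HHD_S therefore contrasts the diets under the drug, HHD_S against HHD contrasts the drug under 1 diet, and WD_S against HHD joins both differences. The 3 comparisons share libraries and are not independent.

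Absorptive cells of the small intestine take up dietary metals at the brush border and pass them to the blood at the opposite face. Iron is reduced by CYBRD1 (duodenal cytochrome b), held in ferritin, exported by ferroportin (SLC40A1) and oxidised by hephaestin (HEPH) on its way out. Zinc enters the cytosol through the SLC39A (ZIP) proteins and leaves it, to the outside or into organelles, through the SLC30A (ZnT) proteins, while metallothioneins bind the excess. Copper enters through SLC31A1 and is pumped onward by ATP7A. Much iron control acts on messenger RNA stability and translation through the iron regulatory proteins ACO1 and IREB2, and hepcidin acts on the ferroportin protein, so transcript levels show only a portion of that control.

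Libraries held between 15.3 and 31.6 M unique exon reads, and levels are given as CPM, counts scaled to library size with TMM factors. CPM are not corrected for transcript length, so levels are compared between pigs and not between genes. None of the 10 enterocyte markers in the files was at 0 in every library, and their sums ran from 25734 to 86489 CPM. The mean centred log2 CPM of those markers, called the enterocyte score below, was lowest in pig 3 of HHD_S (-1.26) and next lowest in pig 8 of HHD_S (-0.79). Results that rest on these pigs are given with and without them, a choice made after seeing the data. In whole mucosa, fewer cells of a type and less RNA per cell cannot be told apart.

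No member passed an adjusted p of 0.05 (edgeR quasi-likelihood test, Benjamini-Hochberg over all genes) in any of the 3 comparisons. The share of all 13626 genes tested that did so was 0% for WD_S against HHD_S, 0% for HHD_S against HHD and 0.00734% (1 gene) for WD_S against HHD. At an unadjusted p under 0.05, 0 members were found for WD_S against HHD_S against 2.92% of all genes. For HHD_S against HHD it was 2 members, CYBRD1 and MT3, against 1.81% of all genes, and for WD_S against HHD 0 members against 3.41%. DESeq2 and limma also called no member at an adjusted p of 0.05. The groups overlapped in the CPM of every member tested in every comparison. Across all genes the groups failed to overlap in 0.0147%, 0.0147% and 0.0661% of cases in the same order.

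Members with positive and negative differences were mixed. Between WD_S and HHD_S, 18 had a positive and 16 a negative log2 fold change, with a median of 0.0047 beside -0.010 over all genes. Between HHD_S and HHD the split was 23 to 11 with a median of 0.034 (all genes 0.0088), and between WD_S and HHD it was 20 to 14 with a median of 0.032 (all genes -0.0041). The precision differed widely from gene to gene, as the plot of fold changes shows. For HIF1A the 95% interval of WD_S against HHD_S ran from -0.19 to 0.16, whereas for MT3 it ran from -1.22 to 1.02.

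**Figure D1:**
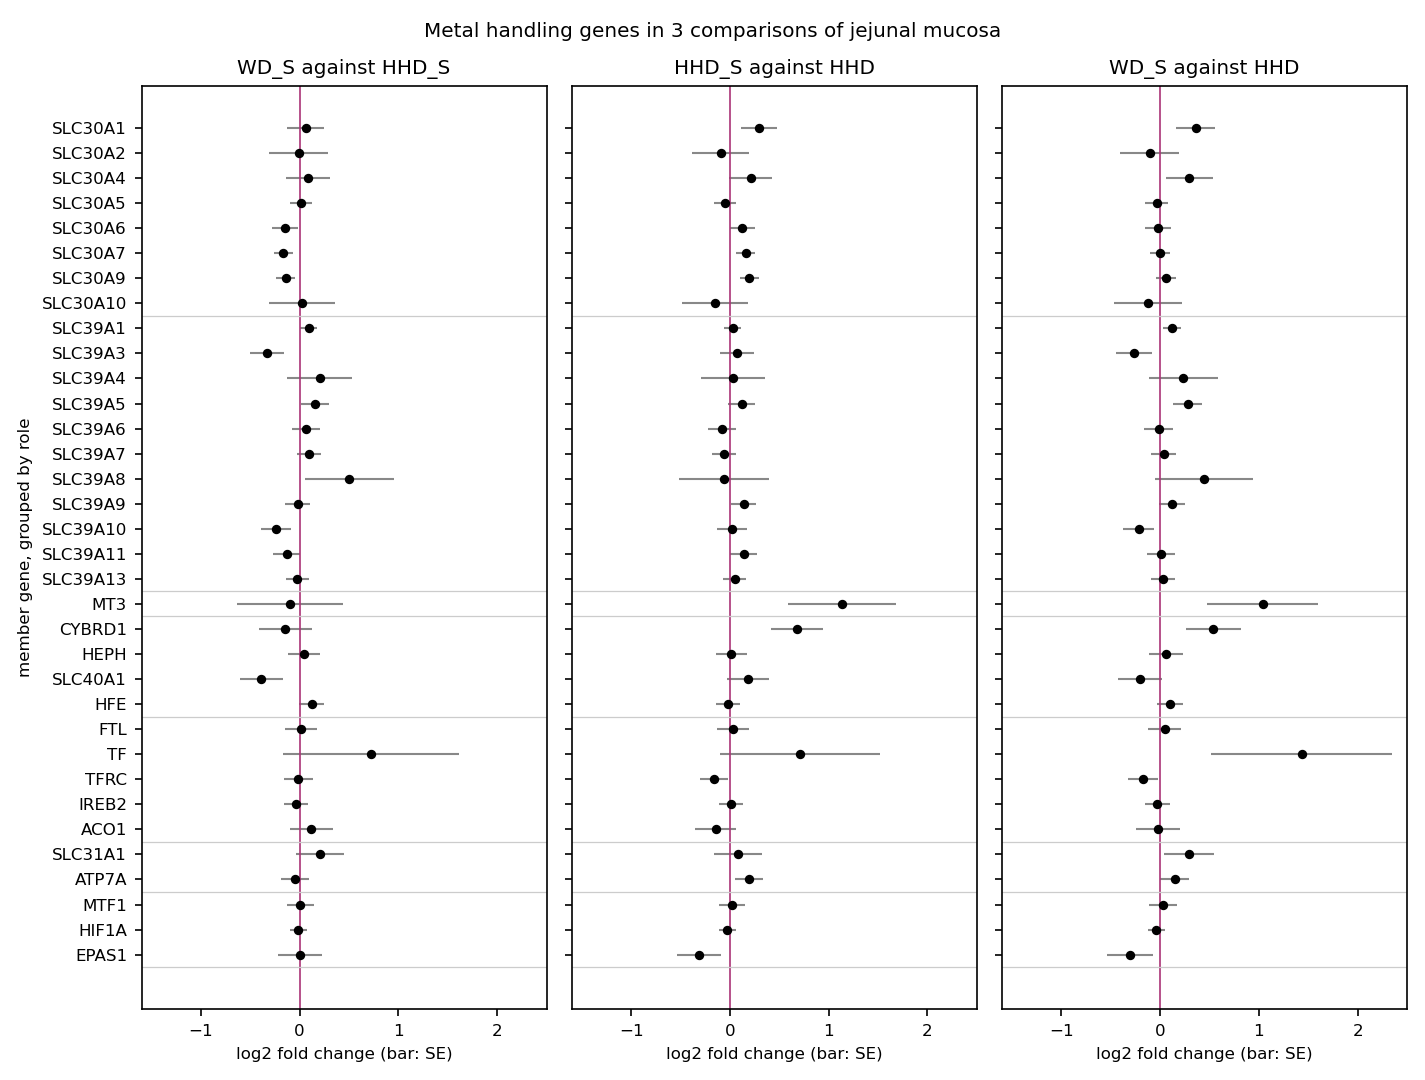
Log2 fold change (x axis, edgeR, bars are standard errors) of the 34 members that passed the filter (y axis, grouped by role) in the 3 comparisons. Most points lie near 0, the points of CYBRD1, MT3 and TF lie to the right in both comparisons with HHD, and TF has the widest bars.

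Among the genes of iron absorption, CYBRD1, the brush border reductase that prepares ferric iron for uptake, had the smallest p of any member in the comparisons of groups. CYBRD1 (chromosome 15, 77649124 to 77695141, Sscrofa11.1, RefSeq gene span) was at 229 CPM in the lowest, 284 CPM in the median and 407 CPM in the highest pig of HHD. In HHD_S it was at 214, 354 and 862 CPM, and in WD_S at 284, 425 and 564 CPM in the same order. The top of HHD_S was set by pigs 4 (862 CPM) and 8 (801 CPM), while the lowest HHD_S pig lay under every HHD pig. HHD_S against HHD gave a log2 fold change of 0.68 (SE 0.263, 95% interval 0.14 to 1.23, unadjusted p = 0.0167 by edgeR, adjusted p = 0.999), with 0.67 in library pool 3 and 0.71 in pool 4. It was 0.46 without pig 8 of HHD_S, 0.50 without pig 4 and 0.51 without pigs 3 and 8. WD_S against HHD gave 0.54 (SE 0.278, unadjusted p = 0.0667), and WD_S against HHD_S gave -0.14 (interval -0.69 to 0.40), or 0.12 without pigs 3 and 8 of HHD_S.

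SLC40A1, ferroportin, the exporter of iron to the blood, followed SLC39A3 in the order of p among members between WD_S and HHD_S. SLC40A1 (chromosome 15, 94140635 to 94161793) was at 39.7, 66.2 and 83.4 CPM in the lowest, median and highest WD_S pig, at 44.9, 81.7 and 113 CPM in HHD_S, and at 36.9, 70.3 and 125 CPM in HHD. HHD held both the lowest and the highest pig of all. The log2 fold change of WD_S against HHD_S was -0.39 (SE 0.218, interval -0.84 to 0.06, unadjusted p = 0.0889 by edgeR), with -0.52 in pool 3 and -0.11 in pool 4. For HHD_S against HHD the pools had opposite signs, 0.47 in pool 3 and -0.40 in pool 4. Macrophages also make ferroportin, and the summed macrophage markers spanned 577 to 1260 CPM in HHD, 612 to 1117 CPM in HHD_S and 716 to 1365 CPM in WD_S. All 8 macrophage markers tested had positive log2 fold changes in WD_S against HHD_S (median 0.20), where that of SLC40A1 was negative. In HHD_S against HHD 2 of these markers were positive and 6 negative (median -0.04). The part of macrophages in the SLC40A1 values was not tested.

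HEPH, the ferroxidase that works beside ferroportin, was at 133, 174 and 255 CPM in the lowest, median and highest HHD pig. It was at 132, 206 and 246 CPM in HHD_S and at 165, 202 and 260 CPM in WD_S, so the groups covered almost the same span. Its fold changes stayed between 0.02 and 0.06 on the log2 scale, and the interval of WD_S against HHD_S was -0.29 to 0.38. HFE, a regulator of hepcidin that binds the transferrin receptor, was at 22.4, 26.0 and 29.7 CPM in HHD, at 16.6, 25.2 and 33.4 CPM in HHD_S and at 19.1, 25.1 and 36.0 CPM in WD_S. Of the 4 iron absorption genes tested, 2, 3 and 3 had positive fold changes in WD_S against HHD_S, HHD_S against HHD and WD_S against HHD.

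**Figure D2:**
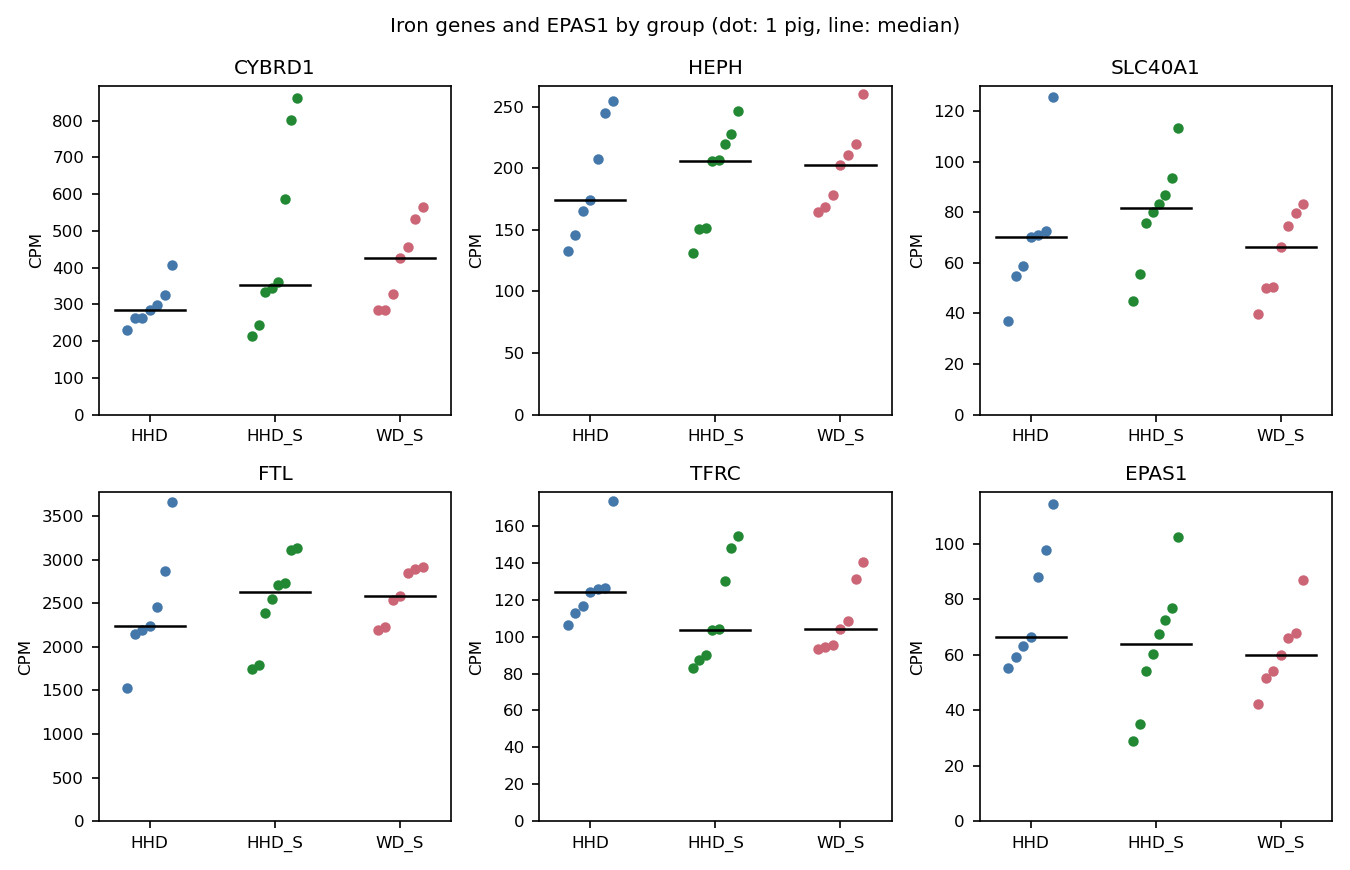
CPM (y axis, from 0) of 5 iron genes and EPAS1 in each pig, with 1 dot a pig, dots spread sideways by rank and a line at the group median. Pigs 4 and 8 of HHD_S stand at 862 and 801 CPM of CYBRD1, and pig 5 of HHD stands alone at 125 CPM of SLC40A1.

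Of the 5 genes of iron storage and sensing tested, 3, 3 and 2 had positive fold changes in WD_S against HHD_S, HHD_S against HHD and WD_S against HHD. FTL, the ferritin light chain (chromosome 6, 54231121 to 54232756), was at 1528, 2245 and 3666 CPM in the lowest, median and highest HHD pig, at 1742, 2631 and 3136 CPM in HHD_S and at 2193, 2589 and 2919 CPM in WD_S. The WD_S pigs lay inside the span of the HHD pigs. The interval of its log2 fold change was -0.32 to 0.35 for WD_S against HHD_S and -0.30 to 0.36 for HHD_S against HHD. FTL has processed copies in mammalian genomes, and reads shared with copies are absent from unique counts, so its level is uncertain.

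TFRC, the transferrin receptor that brings iron in from the blood side and is abundant in dividing cells, was at 106, 124 and 174 CPM in the lowest, median and highest HHD pig. It was at 82.9, 104 and 155 CPM in HHD_S and at 93.4, 104 and 140 CPM in WD_S. Of the HHD_S pigs 5 and of the WD_S pigs 4 lay under the lowest HHD pig, but the groups overlapped, and the log2 fold changes against HHD were -0.16 (SE 0.144) and -0.17 (SE 0.153). Summed markers of dividing and crypt stem cells also had their highest median in HHD, at 1654 CPM (range 819 to 1945). It was 876 CPM (438 to 1742) in HHD_S and 883 CPM (611 to 2023) in WD_S. Taken singly, 6 of the 7 markers had negative log2 fold changes in each comparison with HHD. The median over these markers was -0.13 for HHD_S and only -0.02 (from -0.37 to 0.72) for WD_S. The part of these markers in the TFRC values was not tested. Without pigs 3 and 8 of HHD_S the TFRC difference between HHD_S and HHD was -0.31 (SE 0.140, unadjusted p = 0.0407 by edgeR), not past the adjusted threshold.

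The iron regulatory proteins had group medians near each other. IREB2 was at 44.9, 55.4 and 65.3 CPM in the lowest, median and highest HHD pig, at 41.0, 56.9 and 71.0 CPM in HHD_S and at 41.5, 55.4 and 69.8 CPM in WD_S. ACO1, cytosolic aconitase, which becomes an RNA-binding regulator when iron is scarce, stood at 144, 128 and 126 CPM, with single pigs from 51.7 CPM (pig 8 of HHD_S) to 203 CPM (pig 2 of HHD_S). TF, the plasma iron carrier transferrin, was near the floor of the assay, with group medians of 0.524, 0.292 and 0.729 CPM. Pig 1 of HHD_S (4.75 CPM) and pig 4 of WD_S (4.10 CPM) were the highest, the next pig was at 1.79 CPM, and 2 pigs had no read. The log2 fold change of WD_S against HHD was 1.43 (SE 0.920, unadjusted p = 0.134 by edgeR). The same 2 pigs had the highest sums of markers of exocrine pancreas or liver, 32.3 and 32.8 CPM, where all other pigs lay between 3.56 and 12.1 CPM. Whether those cells gave the TF reads was not tested.

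Among the zinc exporters, SLC30A1 (ZnT1), which moves zinc out across the plasma membrane, had higher medians in both drug-treated groups than in HHD. The same held for the medians of SLC30A2, SLC30A4, SLC30A6, SLC30A9 and SLC30A10, so the pattern was not particular to SLC30A1. The fitted log2 fold changes did not all follow the medians. For HHD_S and WD_S against HHD they were -0.15 and -0.12 for SLC30A10, and -0.09 and -0.10 for SLC30A2. SLC30A6 had 0.13 and -0.02, while SLC30A1, SLC30A4 and SLC30A9 were positive in both. SLC30A1 (chromosome 9, 131633586 to 131636934) was at 36.2, 58.0 and 83.6 CPM in the lowest, median and highest HHD pig, at 49.6, 69.4 and 93.5 CPM in HHD_S and at 40.9, 69.9 and 103 CPM in WD_S. The middle pigs of WD_S and HHD_S lay above the HHD median, yet pig 1 of WD_S was near the bottom of HHD. On the log2 scale the difference was 0.36 (SE 0.198, unadjusted p = 0.0826 by edgeR) for WD_S against HHD, with 0.13 in pool 3 and 0.70 in pool 4, and 0.30 (SE 0.184, unadjusted p = 0.120) for HHD_S against HHD. SLC30A4 had medians of 156, 177 and 209 CPM in HHD, HHD_S and WD_S. Its log2 fold changes against HHD were 0.21 (SE 0.219) for HHD_S and 0.30 (SE 0.235) for WD_S.

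SLC30A9, a mitochondrial zinc exporter, followed CYBRD1 and MT3 in the order of p between HHD_S and HHD. It was at 46.8, 56.2 and 58.9 CPM in the lowest, median and highest HHD pig at 52.5, 62.2 and 81.9 CPM in HHD_S and at 47.7, 57.3 and 67.1 CPM in WD_S. Its log2 fold change was 0.20 (SE 0.0947, unadjusted p = 0.0506 by edgeR), and the values were 0.25 in pool 3 and 0.06 in pool 4. SLC30A7, of the secretory pathway, was at 32.4, 40.4 and 44.3 CPM in HHD, at 39.2, 41.4 and 55.1 CPM in HHD_S and at 33.3, 40.2 and 45.1 CPM in WD_S. It had log2 fold changes of 0.16 for HHD_S against HHD and -0.16 for WD_S against HHD_S (unadjusted p = 0.109 and unadjusted p = 0.108). SLC30A10, best known as a manganese exporter, ranged from 13.7 to 89.0 CPM over the 22 pigs while its group medians were 28.1, 36.6 and 33.3 CPM. SLC30A6, which pairs with SLC30A5 in the secretory pathway, had medians of 71.4, 73.1 and 74.3 CPM and -0.15 (SE 0.128) between WD_S and HHD_S. SLC30A5 stayed at medians of 89.9, 86.5 and 88.6 CPM, and SLC30A2, the vesicular exporter ZnT2, at 0.720, 0.796 and 0.786 CPM. Of the 8 exporters tested, 4, 5 and 3 had positive fold changes in WD_S against HHD_S, HHD_S against HHD and WD_S against HHD.

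Among the zinc importers, SLC39A4 (ZIP4), the main brush border zinc importer, had its lowest level in 1 pig far from the others. SLC39A4 (chromosome 4, 372681 to 378519) was at 208, 300 and 458 CPM in the lowest, median and highest HHD pig, at 40.9, 351 and 500 CPM in HHD_S and at 217, 358 and 456 CPM in WD_S. Pigs 3 (40.9 CPM) and 8 (137 CPM) of HHD_S lay under all the others, and they are the pigs with the lowest enterocyte scores. With them, the log2 fold change of HHD_S against HHD was 0.03 (SE 0.325), and without them it was 0.34 (SE 0.174, unadjusted p = 0.0684 by edgeR). WD_S against HHD_S was 0.20 with them and -0.11 without.

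SLC39A5 (ZIP5), which faces the blood side of the enterocyte, was at 135, 179 and 233 CPM in HHD, at 112, 205 and 246 CPM in HHD_S and at 190, 216 and 270 CPM in WD_S, again as lowest, median and highest pig. Only pig 6 of HHD lay above the WD_S median, and every WD_S pig lay above the HHD median. The log2 fold change of WD_S against HHD was 0.28 (SE 0.149, interval -0.03 to 0.59, unadjusted p = 0.0752 by edgeR), with 0.26 and 0.30 in pools 3 and 4. For HHD_S against HHD it was 0.12 (SE 0.141) with all pigs and 0.25 (SE 0.119, unadjusted p = 0.0474) without pigs 3 and 8 of HHD_S, and neither passed the adjusted threshold.

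The plasma membrane importer SLC39A3 had the smallest p of the members between WD_S and HHD_S. It was at 3.62, 4.82 and 5.88 CPM in WD_S and at 5.37, 5.69 and 7.80 CPM in HHD_S, with HHD spanning both at 3.45, 5.59 and 8.25 CPM. The log2 fold change was -0.33 (SE 0.175, unadjusted p = 0.0727 by edgeR), with -0.20 and -0.42 in pools 3 and 4. SLC39A8, which also carries manganese and iron, was at 6.08, 11.5 and 45.1 CPM in HHD, at 4.88, 16.8 and 31.4 CPM in HHD_S and at 10.3, 23.4 and 46.2 CPM in WD_S. It had log2 fold changes of 0.50 (SE 0.452), -0.06 (SE 0.456) and 0.45 (SE 0.495) in WD_S against HHD_S, HHD_S against HHD and WD_S against HHD. SLC39A10 had medians of 24.0, 21.98 and 19.5 CPM in HHD, HHD_S and WD_S, and log2 fold changes of -0.24 (SE 0.153) and -0.22 (SE 0.159) in WD_S against HHD_S and against HHD. SLC39A9 had medians of 177, 225 and 204 CPM and 0.14 (SE 0.125) in HHD_S against HHD. Of the 11 importers tested, 6, 8 and 8 had positive fold changes in WD_S against HHD_S, HHD_S against HHD and WD_S against HHD. The other importers, SLC39A1, SLC39A6, SLC39A7, SLC39A9, SLC39A11 and SLC39A13, had unadjusted p of 0.206 or more in all comparisons.

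Below the filter were SLC30A3 with 0 to 9 reads a library, SLC30A8 with 0 to 4, SLC39A2 with 1 to 41 and SLC39A12 with 0 to 2. SLC30A3 had no read in 4 libraries, SLC30A8 in 11 and SLC39A12 in 16. SLC30A8 is known from the insulin granules of the pancreas and SLC30A3 from synaptic vesicles. No comparison was made for these 4 members.

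The metallothioneins, small cysteine-rich proteins that bind zinc and copper and whose genes answer to zinc through MTF1, had higher medians in WD_S than in HHD. MT3 (chromosome 6, 18634735 to 18636134) was at 0.494, 3.80 and 9.77 CPM in the lowest, median and highest HHD pig, at 3.31, 5.86 and 38.8 CPM in HHD_S and at 6.39, 7.08 and 15.2 CPM in WD_S. The 7 WD_S pigs lay above 5 of the 7 HHD pigs. The log2 fold change of HHD_S against HHD was 1.14 (SE 0.546, unadjusted p = 0.0499 by edgeR, adjusted p = 0.999), with 1.38 and 0.61 in pools 3 and 4. It was 0.39 without pig 3 of HHD_S, the pig at 38.8 CPM, and 0.14 without pigs 3 and 8. For WD_S against HHD it was 1.04 (SE 0.566, unadjusted p = 0.0813), with 1.29 and 0.62 in the pools.

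MT1A and MT1X, which the set's rule did not take in, are metallothioneins with more reads, from the list of other zinc genes. MT1A (chromosome 6, 18672016 to 18673673) was at 12.3, 34.8 and 65.4 CPM in HHD, at 20.6, 38.6 and 198 CPM in HHD_S and at 55.8, 77.3 and 144 CPM in WD_S as lowest, median and highest pig. MT1X was at 30.99, 117 and 198 CPM in HHD, at 60.02, 119 and 376 CPM in HHD_S and at 166, 228 and 301 CPM in WD_S. In both genes the top HHD_S value was pig 3, and all WD_S pigs lay above the medians of HHD and HHD_S. WD_S against HHD gave log2 fold changes of 1.36 (SE 0.447, unadjusted p = 0.00619) for MT1A and 1.15 (SE 0.354, unadjusted p = 0.00371) for MT1X, neither past the adjusted threshold of edgeR (adjusted p = 0.9997).

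Between WD_S and HHD_S the metallothionein differences depended on that pig. MT1A gave 0.73 (SE 0.424, unadjusted p = 0.0985) and MT1X gave 0.63 (SE 0.331, unadjusted p = 0.0722) with all pigs. Without pigs 3 and 8 of HHD_S, MT1A gave 1.38 (SE 0.332, unadjusted p = 0.000536) and MT1X gave 1.05 (SE 0.301, unadjusted p = 0.00237), with an edgeR adjusted p of 0.999 for both. MT3 then gave 0.85 (SE 0.436, unadjusted p = 0.0664) where it had been -0.10 with all pigs. For HHD_S against HHD, removing these pigs took MT1A from 0.63 to -0.09. Metallothionein genes are near copies of one another, so unique counts of each are uncertain, and the symbol MT1X comes from the table of gene names.

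**Figure D3:**
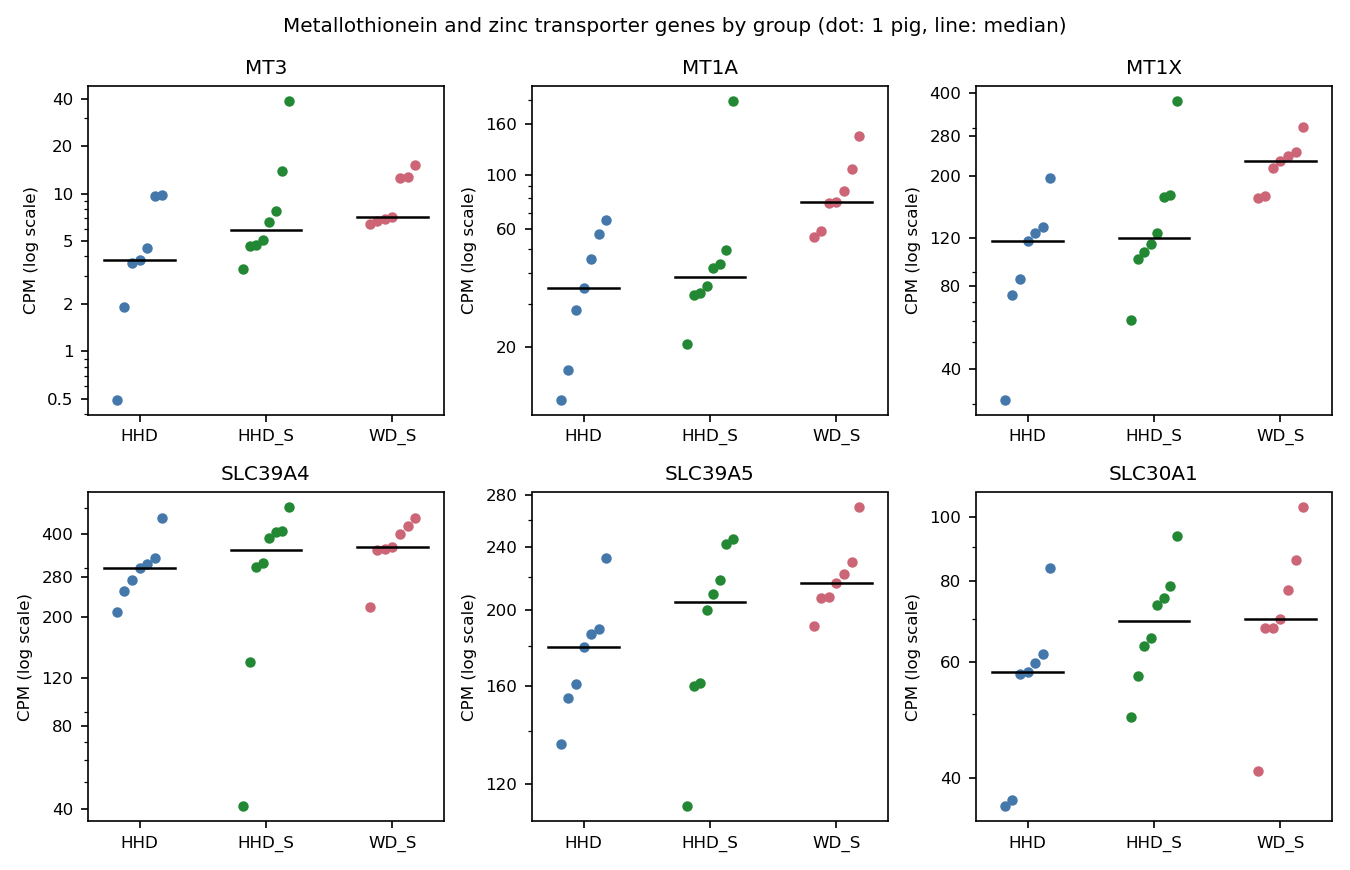
CPM (y axis, log scale) of 3 metallothionein genes and 3 zinc transporter genes in each pig, with 1 dot a pig, dots spread sideways by rank and a line at the group median. Pig 3 of HHD_S is the top dot of its group for MT3, MT1A and MT1X (38.8, 198 and 376 CPM) and the bottom dot for SLC39A4 and SLC39A5 (40.9 and 112 CPM).

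Of the copper transporters, none past the threshold, SLC31A1 and ATP7A had higher medians in both drug-treated groups than in HHD, and ATP7B did not in HHD_S. SLC31A1 (CTR1), the copper importer (chromosome 1, 253868389 to 253893135), was at 359, 579 and 891 CPM in the lowest, median and highest HHD pig, at 287, 734 and 882 CPM in HHD_S and at 412, 763 and 1112 CPM in WD_S. Its log2 fold change of WD_S against HHD was 0.29 (SE 0.256), and the groups overlapped over most of their range. For HHD_S against HHD it was only 0.08 (SE 0.242), with 0.12 in pool 3 and -0.02 in pool 4, despite the gap in medians. SLC31A1 also followed the enterocyte score (r = 0.75, or 0.58 without pigs 3 and 8 of HHD_S), and the part of enterocytes in its values was not tested. ATP7A, the pump that sends copper to the blood and whose loss causes Menkes disease, was at 31.5, 35.3 and 55.0 CPM in HHD, at 30.9, 47.6 and 55.9 CPM in HHD_S and at 32.7, 45.6 and 55.9 CPM in WD_S. Its log2 fold change of HHD_S against HHD was 0.20 (SE 0.142). ATP7B, the related pump mutated in Wilson disease, had medians of 58.2, 56.6 and 60.5 CPM and log2 fold changes of 0.00 to 0.12.

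The metal and oxygen responsive transcription factors differed in how much pigs varied. MTF1, which turns on metallothionein genes and SLC30A1 when zinc is high, had medians of 21.996, 22.6 and 21.5 CPM in HHD, HHD_S and WD_S. HIF1A had medians of 65.1, 60.1 and 60.5 CPM. EPAS1 (HIF2 alpha), which turns on CYBRD1 and SLC40A1 in the iron-poor gut, was at 55.4, 66.5 and 114 CPM in the lowest, median and highest HHD pig, at 29.0, 63.9 and 102 CPM in HHD_S and at 42.4, 60.1 and 87.0 CPM in WD_S. Its lowest values belonged to pigs 4 and 8 of HHD_S, the same pigs that had the most CYBRD1. Summed smooth muscle markers were also low in them (293 and 200 CPM, in a range of 200 to 1033 CPM over all pigs), and their part in the EPAS1 values was not tested. The log2 fold changes of EPAS1 against HHD were -0.31 (SE 0.222) for HHD_S and -0.31 (SE 0.234) for WD_S. HIF1A differed between the library pools by -0.18 in pool 4 against pool 3 (unadjusted p = 0.0162, edgeR adjusted p = 0.916). SLC30A2 and HFE differed by 0.57 and -0.24 (unadjusted p = 0.0268 and unadjusted p = 0.0340 by edgeR). At an unadjusted p under 0.05, 1 of the 34 members was thus higher and 2 were lower in pool 4. Of all 13626 genes, 290 were higher and 312 lower at that level. The share of all genes past the adjusted threshold between pools was 0%.

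Further genes of the same pathways, from lists of iron, heme, copper, zinc and oxygen sensing genes, also held none past the adjusted threshold. Genes named here are those at an unadjusted p under 0.05, which 2.92%, 1.81% and 3.41% of all genes reached in WD_S against HHD_S, HHD_S against HHD and WD_S against HHD. Of 18 other iron genes tested, 11 had positive fold changes between WD_S and HHD_S and 7 in each comparison with HHD. Of these, GLRX5, an iron-sulphur cluster factor, was lower in WD_S than in HHD_S (log2 fold change -0.18), HSPA9, a mitochondrial chaperone of cluster assembly, was lower in WD_S than in HHD (-0.27), and SMAD7, an inhibitor of BMP signalling, was higher in HHD_S than in HHD (0.34). Among 17 heme genes the heme carrier FLVCR2 was higher (0.36) and the folate and heme transporter SLC46A1 lower (-0.64) in HHD_S than in HHD. The median of SLC46A1 was 4.02 CPM in HHD and 3.46 CPM in HHD_S, with a single HHD pig at 14.8 CPM, and its fold change was -0.22 in pool 3 and -1.43 in pool 4. Among 12 other copper genes COX11, which delivers copper to cytochrome oxidase, was higher in HHD_S than in HHD (0.28). CA2, the zinc enzyme carbonic anhydrase, was lower in WD_S than in HHD_S (-0.70, unadjusted p = 0.0159) and than in HHD (-0.78, unadjusted p = 0.00938). Of 15 oxygen sensing genes, 10 had positive and 5 negative fold changes between WD_S and HHD_S, with a median of 0.036. EGLN3 and CA9, both hypoxia targets, were among the 5 (-0.27 and -0.35).

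The spread between pigs was like that of genes in general. The median biological coefficient of variation was 20.8% for the 34 members and 20.7% for all genes tested, and 17 of the 34 lay above the latter. It was widest for TF (106%), MT3 (69.6%), SLC39A8 (57.9%), SLC30A10 (43.8%), SLC39A4 (43.1%) and CYBRD1 (35.1%). The steadiest were HIF1A (13.01%), SLC39A1 (13.3%) and SLC30A9 (14.4%). Between the highest and the lowest pig, SLC39A4 differed 12.2-fold, or 3.65-fold without pig 3 of HHD_S, and SLC39A1 1.43-fold. Without pigs 3 and 8 of HHD_S the coefficient was 22.9% for SLC39A4 and 53.3% for MT3, and 17 of the 34 members again lay above the median of all genes.

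Members were then set against each other over the 22 pigs, on log2 CPM, with 100000 permutations a pair. Of 15 pairs named from their known links, 9 had both genes measured, and p values were adjusted over these 9. SLC39A4 and SLC39A5, the importers of opposite faces of the cell, varied together (r = 0.82, rho = 0.84, permutation p = 1e-05, the smallest that these permutations can give, adjusted p = 9e-05). The relation was 0.77 without the 2 pigs farthest from the SLC39A4 median, and 0.83 and 0.79 within pools 3 and 4. SLC31A1 and ATP7A, copper entry and exit, also went together (r = 0.72, rho = 0.73, permutation p = 0.00014, adjusted p = 0.00063). That relation was 0.70 without the 2 farthest pigs and 0.83 in pool 3, but 0.08 in pool 4.

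EPAS1 and CYBRD1, its target, ran in opposite directions by Pearson's r (-0.54, permutation p = 0.00939, adjusted p = 0.0282) but not past the threshold by rank (rho = -0.34, permutation p = 0.118). Without pigs 4 and 8 of HHD_S r was -0.13, so the relation rested on those pigs. Within HHD, HHD_S and WD_S r was -0.21, -0.70 and 0.20. The other 6 pairs did not pass. These were CYBRD1 with SLC40A1 (r = 0.27), TFRC with CYBRD1 (0.19), SLC40A1 with HEPH (-0.17), IREB2 with ACO1 (0.17), SLC39A4 with SLC30A1 (0.13) and SLC30A1 with MTF1 (-0.07), with permutation p from 0.220 to 0.748. For SLC39A4 with SLC30A1 the value rested on pigs 3 and 8 of HHD_S, since r was 0.48 without them. Within HHD, HHD_S and WD_S it was 0.42, -0.18 and 0.91. In the same order CYBRD1 with SLC40A1 gave -0.86, 0.68 and 0.43, and TFRC with CYBRD1 gave 0.66, 0.65 and -0.60. The remaining pairs that did not pass also changed sign between the groups.

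All pairs of the 34 members, MT1A, MT1X and ATP7B were examined afterwards, 666 in number, and 67 passed an adjusted permutation p of 0.05 over the 666. Of these 46 were positive and 21 negative, and 61 kept an r beyond 0.5 in size without pigs 3 and 8 of HHD_S. Among the 561 pairs of members alone, 6.06% had r above 0.6 and 3.21% below -0.6, beside 3.11% and 2.57% of all gene pairs in the libraries. Without those pigs the shares were 7.13% and 2.5% of member pairs, beside 3.31% and 2.86% of all gene pairs. Pairs that share a library share its cell makeup, depth and scaling, so a correlation does not show control of one gene by another.

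A block of genes stood out around the copper importer. SLC31A1 went with SLC39A9, a zinc importer of the Golgi (r = 0.88, rho = 0.86), with SLC39A5 (r = 0.83, rho = 0.88) and with SLC39A4 (r = 0.74, rho = 0.73), each at an adjusted permutation p of 0.00166. Without the 2 pigs farthest from the SLC31A1 median these were 0.85, 0.74 and 0.75, and within pools 3 and 4 the pair with SLC39A9 gave 0.92 and 0.66. With group and pool removed the r of SLC31A1 with SLC39A9 was 0.91. SLC39A6 and SLC39A10, close relatives of each other, ran the opposite way, with r of -0.69 for SLC31A1 with SLC39A6 and -0.70 for SLC39A5 with SLC39A10, and went together with each other (r = 0.66, adjusted permutation p = 0.0170).

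The 3 metallothioneins formed a block of their own. MT1A and MT1X had r = 0.91 (rho = 0.86, adjusted permutation p = 0.00166), MT3 and MT1A 0.85 (rho = 0.78) and MT3 and MT1X 0.84 (rho = 0.70). Without the 2 pigs farthest from the median of the first gene these were 0.87, 0.74 and 0.67. No other gene of the 37 passed with any of them. MTF1, their known regulator, had r of 0.07, 0.02 and -0.14 with MT3, MT1A and MT1X.

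**Figure D4:**
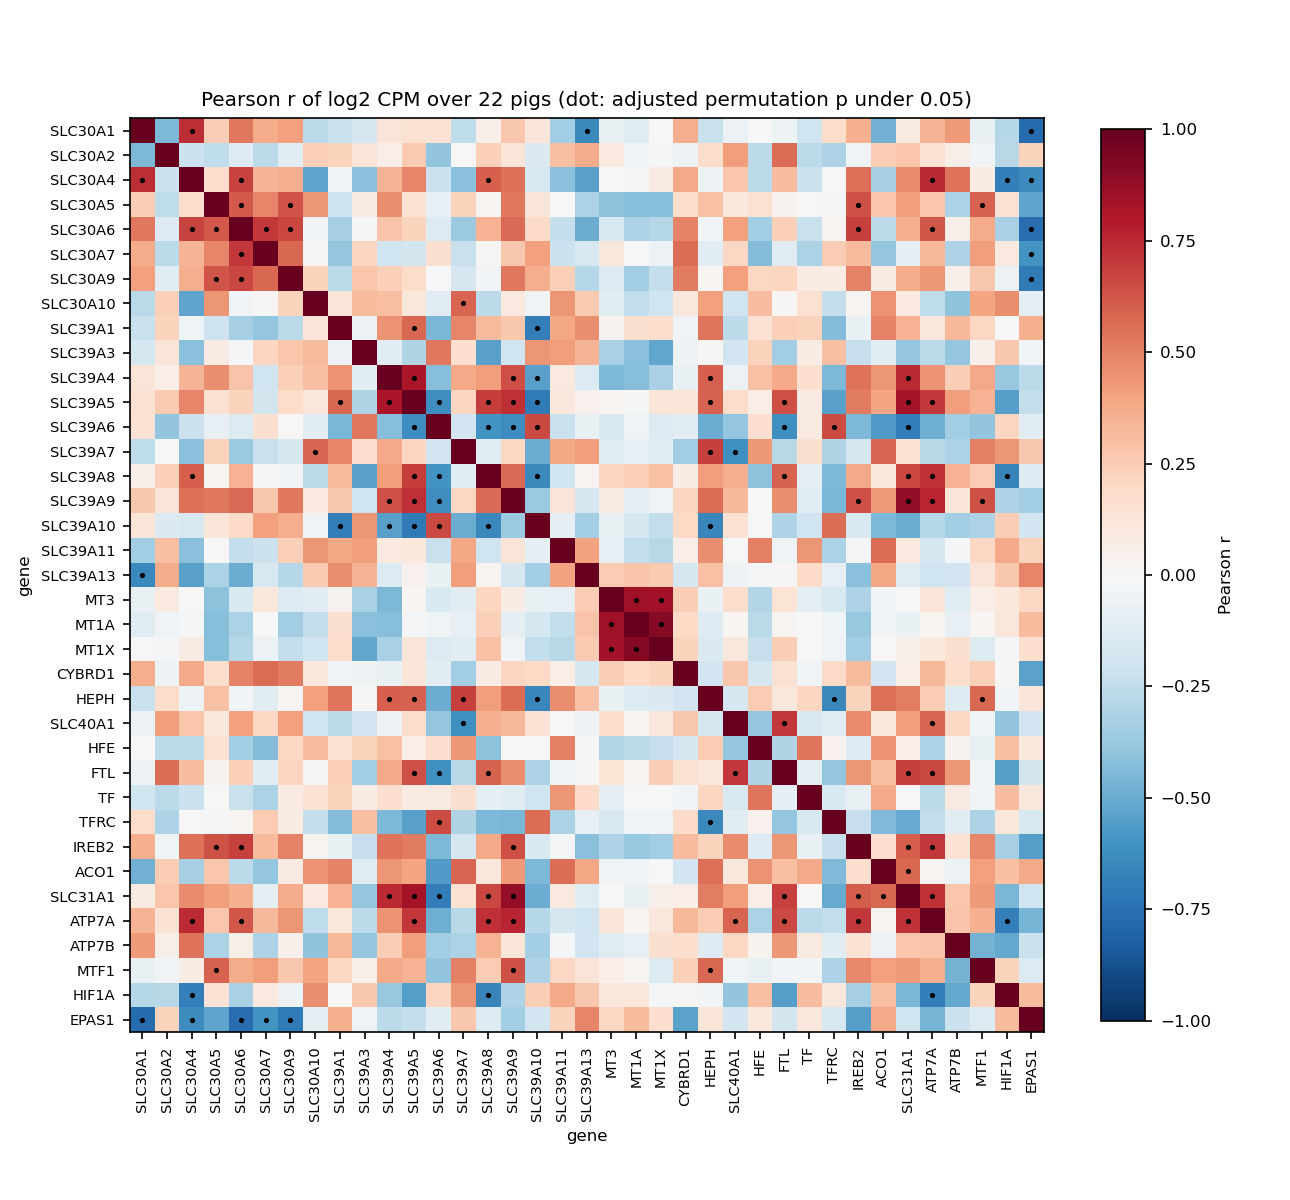
Pearson r (colour, from -1 to 1) of log2 CPM over 22 pigs for all pairs of 37 genes (both axes, the 34 members with MT1A, MT1X and ATP7B), dots marking an adjusted permutation p under 0.05. The 3 metallothioneins form a red square, and the EPAS1 column is blue against SLC30A1, SLC30A4, SLC30A6, SLC30A7 and SLC30A9.

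EPAS1 ran against 5 of the 8 zinc exporters tested. Its r was -0.77 with SLC30A1 (rho = -0.77, adjusted permutation p = 0.0037), -0.76 with SLC30A6 (rho = -0.72, p = 0.004), -0.71 with SLC30A9 (rho = -0.71), -0.63 with SLC30A4 (rho = -0.61) and -0.60 with SLC30A7 (rho = -0.54, not past the adjusted threshold by rank). Without pigs 4 and 8 of HHD_S, the farthest from the EPAS1 median, these were -0.78, -0.62, -0.52, -0.58 and -0.27, so the last rested on those pigs. With the other exporters, SLC30A5, SLC30A10 and SLC30A2, r was -0.52, -0.09 and 0.22, none past the adjusted threshold. The share of all genes that ran against EPAS1 is not given here. The count of 5 of 8 is therefore not shown to be particular to zinc exporters. The pair of EPAS1 with SLC30A1 gave -0.75 and -0.78 in the pools and -0.87, -0.65 and -0.94 within HHD, HHD_S and WD_S. Summed smooth muscle markers were set beside this pair only for pigs at the ends of the marker range, with no correlation computed. The 3 pigs with the highest sums, pig 3 of HHD_S (1033 CPM) and pigs 2 and 3 of HHD (872 and 839 CPM), had 102, 114 and 88.0 CPM of EPAS1 and 65.4, 37.1 and 59.9 CPM of SLC30A1. The 3 with the lowest sums, pig 8 of HHD_S (200 CPM), pig 7 of HHD (249 CPM) and pig 4 of HHD_S (293 CPM), had 34.9, 55.4 and 29.0 CPM of EPAS1 and 78.6, 83.6 and 93.5 CPM of SLC30A1. The part of these markers in the correlations was not tested. Reads of KDM5D, a Y-linked gene, were absent from some pigs of each group. SLC30A1 was at 77.5 to 103 CPM in WD_S pigs with KDM5D reads and at 40.9 to 69.9 CPM in those without. These ranges were 59.9 to 83.6 and 36.2 to 58.0 CPM in HHD, and 57.2 to 93.5 and 49.6 to 78.6 CPM in HHD_S. The part of sex in the correlations was not tested. SLC30A1 and SLC30A4 went together (r = 0.74, rho = 0.75, adjusted permutation p = 0.00484).

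Among the iron genes, FTL went with SLC40A1 (r = 0.71, rho = 0.65, adjusted permutation p = 0.00898). Both messenger RNAs carry iron responsive elements that act on translation. The r was 0.56 without the 2 pigs farthest from the FTL median, and 0.65 and 0.77 in pools 3 and 4. HEPH ran against TFRC (r = -0.65, rho = -0.67, adjusted permutation p = 0.0195), with -0.60 without the 2 farthest pigs and -0.61 and -0.70 in the pools.

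**Figure D5:**
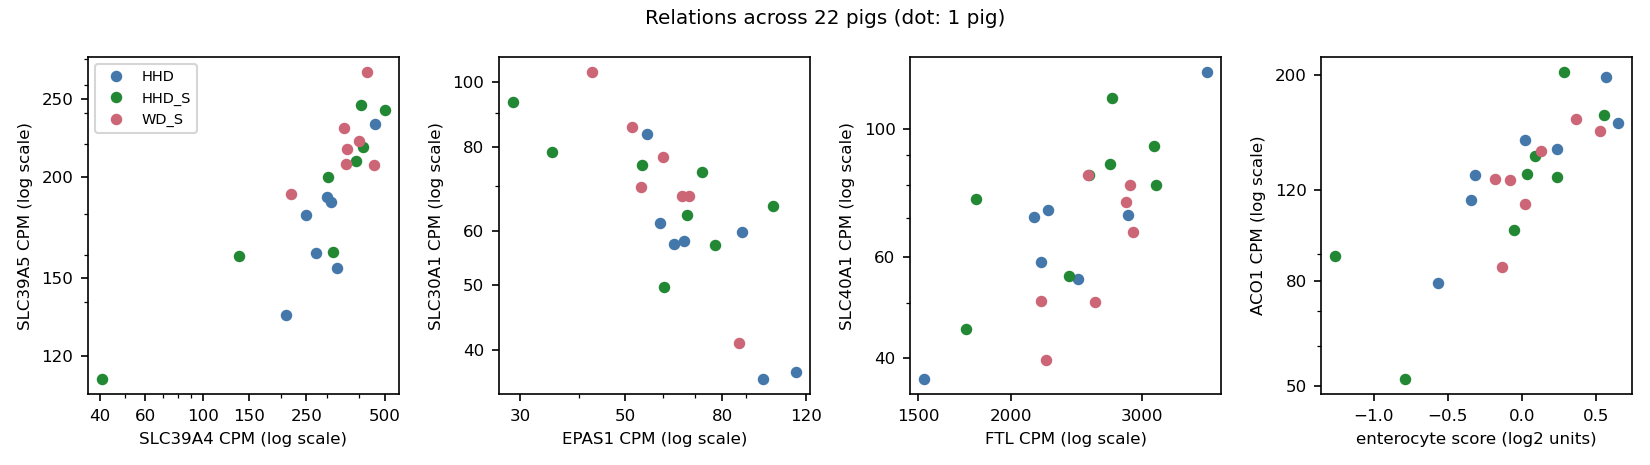
Relations over 22 pigs (1 dot a pig, coloured by group), with CPM on log scales for SLC39A5 against SLC39A4, SLC30A1 against EPAS1 and SLC40A1 against FTL, and ACO1 CPM (log scale) against the enterocyte score (log2 units). The cloud of SLC30A1 against EPAS1 descends (r of -0.77) and the others climb to the right (r of 0.82, 0.71 and 0.80), with pig 3 of HHD_S at the far left for SLC39A4 and for the score.

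Several members followed the enterocyte score. Over the 37 genes set against the enterocyte score after the levels were seen, 11 passed an adjusted permutation p of 0.05, 10 positive and 1 negative. An r above 0.6 was found for 9 of the 34 members (26.5%), beside 5.83% of all other genes tested, and an r below -0.6 for 0 members beside 2.61%. Without pigs 3 and 8 of HHD_S an r above 0.6 was found for 4 members (11.8%), namely ACO1, MTF1, SLC39A9 and HEPH, beside 4% of all other genes. ACO1 followed the score most closely (r = 0.80, rho = 0.86, adjusted permutation p = 0.00037), with 0.79 without pigs 3 and 8 of HHD_S and 0.84 and 0.89 in the pools. SLC31A1 (r = 0.75, rho = 0.64), MTF1 (0.72, rho 0.75), HEPH (0.72, rho 0.70) and SLC39A9 (0.71, rho 0.71) also passed, and without the same pigs they had r of 0.58, 0.72, 0.62 and 0.68.

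SLC39A4 had r = 0.73 with the score (adjusted permutation p = 0.00333) but rho = 0.44 (adjusted permutation p = 0.133), and r was 0.26 without pigs 3 and 8 of HHD_S, on which the relation rested. SLC39A5 had 0.62 with all pigs and 0.32 without them. SLC39A6 was the negative one (r = -0.53, adjusted permutation p = 0.0363, and -0.43 without those pigs). CYBRD1, SLC40A1 and EPAS1 had r of -0.04, 0.06 and -0.02 with the score, and 0.21, 0.27 and 0.02 without those pigs. For MT3, MT1A and MT1X r was -0.13, -0.18 and -0.17 with all pigs and 0.46, 0.20 and 0.17 without them, so the sign rested on those pigs. The enterocyte markers themselves summed to medians of 47834, 62679 and 63314 CPM in HHD, HHD_S and WD_S, with overlapping ranges. A sum gives most weight to the markers with the most reads. Of the 10 markers, 5 had positive and 5 negative log2 fold changes in HHD_S against HHD (median 0.0035). In WD_S against HHD 6 were positive and 4 negative (median 0.053). The part of the enterocyte markers in the group values of the members was not tested.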

How the data were processed

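Jejunal mucosa RNA of 22 pigs was sequenced. RNA had a quality indicator above 8, and TruSeq version 2 libraries were read in single reads of 150 bases, per the labels' protocols. Reads were quality-processed in a CLC workbench with Sscrofa11.1 as the reference, by the same source, with no version stated. Each deposited table held, by its header, a gene's count of reads mapping uniquely to its exons. No kit strand setting is given, so overlapping and antisense genes cannot be told apart. Groups follow each sample's diet label. The series text ties the atherogenic abbreviation to the Western pattern without drug, and the sample labels were followed.

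Counts were fitted with edgeR 4.0.16 in R 4.3.3 (filterByExpr minimum count 10, TMM, robust quasi-likelihood, group plus library pool 3 or 4, read from the deposited files' names). This left 13626 genes and 18 residual degrees of freedom. P values were adjusted by Benjamini-Hochberg over all genes. The pools held 13 and 9 libraries. Group and pool were unevenly mixed, with 5 and 2 libraries of HHD, 5 and 3 of HHD_S and 3 and 4 of WD_S. Every 2 libraries differed by more than counting noise (smallest reduced chi-square 24.0 over 231 pairs). Depth was 15.3 to 31.6 M reads a library, and genes of few reads, such as TF, are the least precise. Correlations used log2 CPM with a prior count of 2. The fitting code was tested on simulated data. Coordinates are RefSeq gene spans, matched by symbol for all 38 members, of which TF had 2 entries. A description of promoter motifs was planned and not made here.

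The members and lists were chosen with earlier results of these data known. The plan gave lowest, median and highest pig for members with the 8 smallest p in any comparison and for named transporters and regulators. Several of these, such as SLC39A9, SLC39A10, SLC30A6, MTF1 and HIF1A, were given by group medians without the span of pigs. The pairs of all genes, MT1A, MT1X and ATP7B in them, the enterocyte score and, beyond the planned removal of the 2 farthest pigs, the values without pigs 3 and 8 of HHD_S were added after seeing the data. Alternatives covered the pool term, each pool, the groups in the fit, RLE and total-count scaling, DESeq2 1.42.0, limma 3.58.1 with quality weights, no filter and a minimum count of 30, a Y-linked covariate, estimation without robustness and leaving out each library.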

Additional observations from a re-analysis of the deposited data

Results flagged for a closer look

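Among 102 sets of group values, 8 had a single pig far from the rest of its group by Dixon's test. For independent sets with a normal spread, chance alone flags about 1 set in 20. The test was made on CPM without a log scale and the sets share pigs, so that rate may not hold here. In HHD_S, pig 3 had 38.8 CPM of MT3 where the next pig had 13.9, pig 4 had 81.9 CPM of SLC30A9 (next 66.4), pig 1 had 7.80 CPM of SLC39A3 (next 6.30) and the same pig had 4.75 CPM of TF (next 1.79). In WD_S, pig 4 had 4.10 CPM of TF (next 1.05). In HHD, pig 6 had 45.1 CPM of SLC39A8 (next 19.6), pig 5 had 125 CPM of SLC40A1 (next 72.5) and pig 7 had 174 CPM of TFRC (next 126). Pig 3 of HHD_S also had the lowest enterocyte score, and the pigs high in TF had the most pancreas or liver marker reads. These relations were not tested.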

How the results depend on the processing

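No member passed an adjusted p of 0.05 in any comparison under any of the 35 alternative fits, 22 of which each left out 1 library. Single fold changes were called reversed only where they had been at least 1 standard error from 0. By that rule SLC39A1 in WD_S against HHD_S was -0.000297 by limma, and SLC39A11 in HHD_S against HHD was -0.10 in pool 4 alone. MT1A in HHD_S against HHD was -0.0896 without pigs 3 and 8 of HHD_S. A correlation past the adjusted threshold was called reversed where its sign changed, as for EPAS1 with CYBRD1 (r = 0.20 within WD_S). The causes of these changes were not tested.

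All genes past the threshold in WD_S against HHD_S numbered 2 without the pool term, 4 by DESeq2, 1 by limma, 1 with the Y-linked covariate, 1 without pigs 3 and 8 of HHD_S, and 0 to 2 without single libraries. In HHD_S against HHD they numbered 1 by DESeq2. In WD_S against HHD they numbered 0 in pool 3 alone, pool 4 alone and with total counts, 2 by DESeq2, and 0 to 1 without single libraries.

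Members at an unadjusted p under 0.05 in WD_S against HHD_S numbered 1 in pool 4 alone, 1 with only the compared groups, 2 with total counts, 2 by limma, and 0 to 2 without single libraries. In HHD_S against HHD they numbered 1 in pool 4 alone, with only the compared groups, with RLE, without filter and with the Y-linked covariate, 5 by limma, 4 without pigs 3 and 8 of HHD_S, and 0 (without pig 8 of HHD_S) to 3 without single libraries. In WD_S against HHD they numbered 1 without the pool term, by DESeq2 and with the Y-linked covariate, 4 in pool 4 alone, 2 with only the compared groups, 3 by limma, 3 without pigs 3 and 8 of HHD_S, and 0 to 2 without single libraries. By limma the members' median log2 fold change was 0.14 in HHD_S against HHD and 0.09 in WD_S against HHD, above the 0.034 and 0.032 of edgeR. Pool 4 holds 2 HHD pigs, which limits its values. No paired analysis was made, because each pig was in 1 group and the labels do not link pigs of different groups.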
